A study of Homo sapiens
Mus musculus with 25 samples.

Results

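The enzymes that build mucin-type and Lewis glycans were examined in xenografts of HT29, a human colorectal cancer cell line, with and without the receptor tyrosine phosphatase PTPRK. The set holds 10 genes, C1GALT1, B3GNT6, GCNT1, GCNT3, B3GNT3, B3GNT7, B3GALT5, FUT2, FUT3 and ST6GALNAC1, which were found by symbol among 38128 genes of the count table, each on 1 row. B3GALT5 and B3GNT6 were chosen by their counts, which differed between PTPRK.RQ and PTPRK tumours, so values of that contrast are given only as a description. All 10 genes passed the filter on low counts.

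Mucin-type O-glycans start with a sugar placed on serine or threonine, which is then extended to a core structure. Core 1 and core 3 are alternative first extensions, core 2 is a branch on core 1, and the chains are lengthened and capped with fucose or sialic acid. Lewis and related blood group antigens are such fucosylated caps, and the colon, whose mucus is made of heavily glycosylated mucins from goblet cells, is a site where core 3 structures are typical.

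HT29 cells were injected under the skin of nude mice that drank water with doxycycline. WT tumours (n = 5) came from wild-type cells. In the other groups PTPRK had been knocked out in a pool of cells sorted for loss of the protein, not in single clones, and a doxycycline-inducible lentiviral construct had been added. The WT line is described without a construct, and the part of vector and sorting in differences from WT was not tested. PTPRK KO tumours (n = 5) carried tGFP alone, PTPRK tumours carried wild-type PTPRK, PTPRK.RQ tumours (n = 4) carried R1095Q and PTPRK.C1089S tumours (n = 5) carried C1089S, both of which are changes in the catalytic motif of the phosphatase. The study states that C1089S traps substrates and could act as a dominant negative, while R1095Q did not appear to trap them. Its methods describe xenografts of the other lines only, so the details above are not given there for PTPRK.C1089S. The study describes uneven tGFP expression within PTPRK and PTPRK.RQ tumours, and nude mice keep innate immune cells and stroma. The labels give 6 PTPRK tumours, of which replicate 6 lies outside the tumours the study tabulated, and the fits here used replicates 1 to 5. Its values are given beside the others but not in means or tests.

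Polyadenylated RNA of 25 tumours gave 43.7 to 59.4 M counts per tumour, with a median of 50.5 M. Levels are CPM, counts scaled to 1 M of the scaled library size. They are compared between groups within a gene and not between genes, whose transcript lengths differ. PTPRK itself was at 299 to 332 CPM in WT, 28.1 to 75.9 CPM in PTPRK KO, 1309.8 to 2276 CPM in PTPRK, 961 to 1699.6 CPM in PTPRK.RQ and 1129 to 1778 CPM in PTPRK.C1089S tumours, so the constructs were expressed above the WT level in every tumour. The exact two-sided permutation p for PTPRK KO against WT was 0.00794, the smallest that 5 against 5 tumours can give. All 10 markers of colon epithelium were detected, with a summed level of 12638.6 to 18508 CPM per tumour over the 24 tumours without PTPRK replicate 6. In PTPRK replicate 6 the sum was 12000 CPM. Of 10 markers of fibroblasts, vessels and immune cells, 5 were under 1 CPM in each of the same 24 tumours, where the list summed to 47.7 to 72.4 CPM. CD68 alone had group means from 43.7 CPM in PTPRK KO to 54.5 CPM in PTPRK. The counts are of reads aligned to the human assembly, so this list does not measure the mouse stroma, vessels and immune cells of the tumours. The epithelial markers were all on the lower side in PTPRK KO against WT, 4 of 10 with no overlap and 1, VIL1, called (-0.24 ± 0.06, edgeR adjusted p = 0.0351). Over all genes in that comparison, 5.79% had no overlap in either direction and 1.55% were called lower. PECAM1, listed as a vessel marker but counted here in human-aligned reads, averaged 1.20 CPM in PTPRK KO, 4.70 CPM in PTPRK, 4.82 CPM in PTPRK.RQ and 3.22 CPM in PTPRK.C1089S tumours. Which cells its reads came from was not tested. PECAM1 was called higher in the last 3 of these groups than in PTPRK KO, with log2 fold changes of 1.98 ± 0.42, 2.02 ± 0.44 and 1.43 ± 0.40 (edgeR adjusted p = 0.00263, 0.00314 and 0.0149), while CDH5, another vessel marker, was too low to be tested. These differences stand in the same comparisons as those of FUT3, B3GALT5 and C1GALT1, and their part in them was not tested. PTPRK.C1089S replicate 4 stood apart from its group, and without it the genes called in PTPRK.C1089S against PTPRK rose from 1631 to 4377. Whether a lower level in a bulk tumour reflects fewer cells that express a gene or less RNA per cell cannot be told apart. The study's methods describe injection into the right flank of each mouse for the WT, PTPRK KO, PTPRK and PTPRK.RQ lines. Tumours of these groups thus came from separate mice, though the labels do not say so. The PTPRK.C1089S line is not described there, so separate mice are not established for that group. The tests measure the spread between these tumours.

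**Figure D1:**
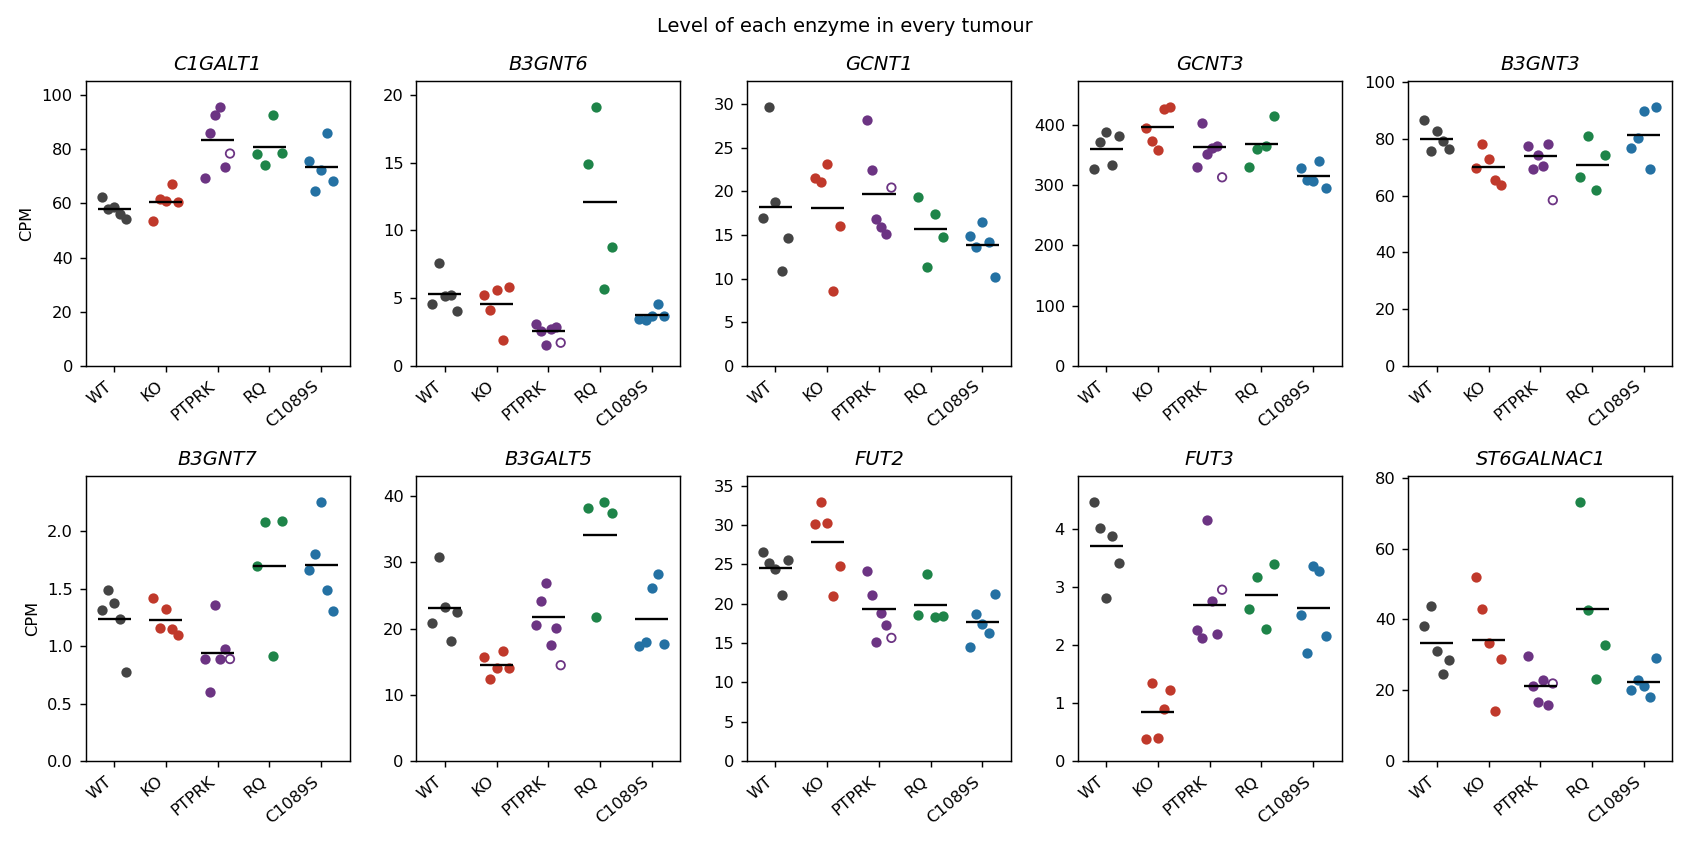
Level of each of the 10 enzymes in CPM (linear axis from 0) in every tumour of the 5 groups. Each point is a tumour, the open point is PTPRK replicate 6 and the line is the group mean without it; FUT3 was lowest in all 5 PTPRK KO tumours, and B3GNT6 was highest in PTPRK.RQ.

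A gene is called higher or lower where edgeR's quasi-likelihood test gave a Benjamini-Hochberg adjusted p under 0.05 over all genes tested. In PTPRK KO against WT, 0 of the 10 enzymes were called higher, where 1.08% of 18550 genes were, and 2 were called lower, where 1.55% of genes were. The 2 were FUT3 and B3GALT5. At an unadjusted p under 0.05 there were 3 of the 10. The share of all genes at that looser threshold was not counted, so the 1.08% and 1.55% do not apply to it. Against PTPRK KO, re-expression of PTPRK gave 3 enzymes called higher (background 13.6%) and 1 lower (background 14.2%), PTPRK.RQ gave 4 higher (10.7%) and 1 lower (11.1%), and PTPRK.C1089S gave 3 higher (9.09% of 18758 genes) and 2 lower (7.53%). FUT3, B3GALT5 and C1GALT1 were higher and FUT2 was lower in each of these 3 comparisons, which share their PTPRK KO tumours. Against WT, PTPRK gave 1 higher (16.1%) and 2 lower (16.8%), PTPRK.RQ gave 3 higher (14.2%) and 0 lower (14.1%), and PTPRK.C1089S gave 1 higher (7.69%) and 1 lower (7.24%). In the comparisons with PTPRK.RQ, 2 of the enzymes called higher were B3GNT6 and B3GALT5, chosen on those tumours, so these counts are partly fixed by the choice. Several of these shares are close to those over all genes, and the 10 had a median log2 fold change between -0.28 and 0.38 in these 7 comparisons, while that over all genes was at most 0.03 in size.

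**Figure D2:**
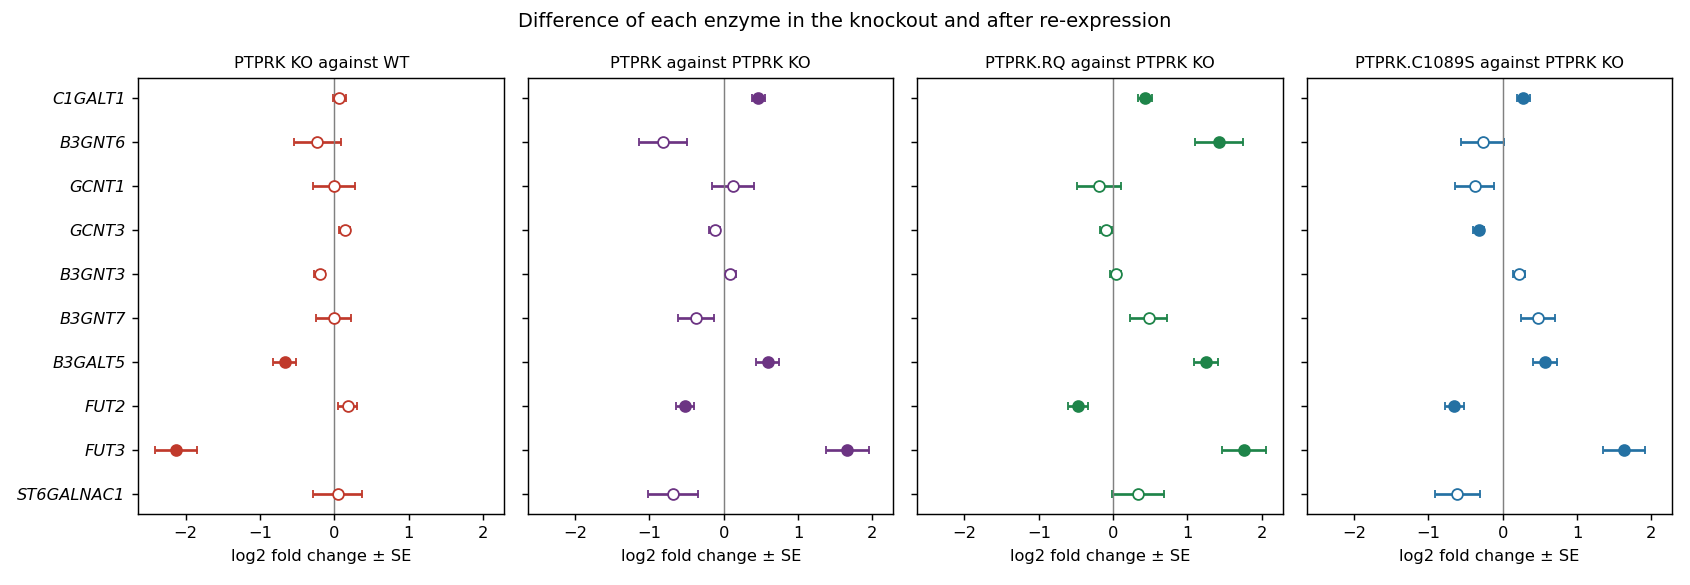
Log2 fold change of each enzyme (points, with standard error bars) in PTPRK KO against WT and in PTPRK, PTPRK.RQ and PTPRK.C1089S against PTPRK KO. Filled points passed an adjusted p of 0.05; FUT3 and B3GALT5 lay below 0 in PTPRK KO against WT and above 0 in the other panels.

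C1GALT1, the core 1 synthase that adds galactose to the first sugar of an O-glycan, was higher in tumours with any of the 3 PTPRK constructs than in WT or PTPRK KO tumours. In WT replicates 1 to 5 it was at 62.5, 57.8, 58.7, 56.2 and 54.2 CPM, and in PTPRK KO replicates 1 to 5 at 53.4, 61.6, 60.7, 67.0 and 60.4 CPM. PTPRK replicates 1 to 6 had 69.2, 86.0, 92.6, 95.6, 73.4 and 78.4 CPM. PTPRK.RQ replicates 1 to 4 had 78.1, 74.3, 92.5 and 78.8 CPM, and PTPRK.C1089S replicates 1 to 5 had 75.7, 64.6, 72.3, 86.1 and 68.2 CPM. Every PTPRK and PTPRK.RQ tumour was above every WT and PTPRK KO tumour, and among PTPRK.C1089S tumours replicate 2 fell within the PTPRK KO range. Relative to PTPRK KO the log2 fold change was 0.47 ± 0.08 (SE) with PTPRK (edgeR adjusted p = 4.35e-04), 0.43 ± 0.09 with PTPRK.RQ (edgeR adjusted p = 0.00132) and 0.28 ± 0.09 with PTPRK.C1089S (edgeR adjusted p = 0.0273). The last call was lost without PTPRK.C1089S replicate 1 or 4 or PTPRK KO replicate 1 or 3, with an edgeR adjusted p of up to 0.0855. Relative to WT the differences were 0.53 ± 0.09, 0.50 ± 0.09 and 0.35 ± 0.09 in the same order, with edgeR adjusted p values of 2.01e-04, 4.33e-04 and 0.00832. PTPRK KO and WT differed by 0.07 ± 0.09, which did not pass the test. The gene lies on chromosome 7 from 7156934 to 7248616 (GRCh38, plus strand), and its 50 nearest tested genes had median log2 fold changes of 0.02 to 0.04 in the same 3 comparisons with PTPRK KO.

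B3GNT6, the core 3 synthase, had its lowest mean in PTPRK and its highest in PTPRK.RQ tumours. WT replicates 1 to 5 had 4.61, 7.62, 5.17, 5.24 and 4.08 CPM, and PTPRK KO replicates 1 to 5 had 5.26, 4.11, 5.62, 1.92 and 5.85 CPM. PTPRK replicates 1 to 6 had 3.10, 2.58, 1.53, 2.71, 2.90 and 1.71 CPM. PTPRK.RQ replicates 1 to 4 had 14.9, 19.1, 5.70 and 8.78 CPM, and PTPRK.C1089S replicates 1 to 5 had 3.46, 3.42, 3.65, 4.60 and 3.68 CPM. All 6 PTPRK tumours lay below all WT tumours, while PTPRK KO replicate 4 was as low as the PTPRK tumours, and PTPRK.RQ replicates 1 and 2 stood above every other tumour. In the contrast that chose the gene, PTPRK.RQ against PTPRK, the log2 fold change was 2.24 ± 0.34 (SE, n = 4 and 5) and the groups did not overlap. PTPRK itself stood at -0.54 ± 0.24 in this contrast, with means of 1290 CPM in PTPRK.RQ and 1880 CPM in PTPRK tumours. The study also states that PTPRK.RQ was the less expressed. The part of construct level in differences between these groups was not tested.

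B3GNT6 was called in 4 of the 9 comparisons that were tested. It was lower in PTPRK than in WT tumours, with a log2 fold change of -1.04 ± 0.32 (edgeR adjusted p = 0.0198), a call lost without PTPRK replicate 3 or WT replicate 2 (edgeR adjusted p up to 0.0539). PTPRK.RQ tumours were higher than PTPRK KO by 1.42 ± 0.33 (edgeR adjusted p = 0.00462) and higher than WT by 1.20 ± 0.33 (edgeR adjusted p = 0.0115), and in both cases the groups overlapped through PTPRK.RQ replicate 3. PTPRK.C1089S tumours were lower than PTPRK.RQ tumours at -1.69 ± 0.29, with no overlap (edgeR adjusted p = 0.00150). PTPRK against PTPRK KO gave -0.82 ± 0.32 (edgeR adjusted p = 0.0678), which passed in 5 of 25 other settings, among them the fit without PTPRK KO replicate 4 and the fit of all 25 tumours, with an edgeR adjusted p as low as 0.0149. All of these comparisons use PTPRK or PTPRK.RQ tumours, whose values chose the gene, and are not independent of that choice. PTPRK KO against WT, which does not use them, gave -0.23 ± 0.31 and did not pass. The gene spans 77034398 to 77041973 of chromosome 11 (GRCh38, plus strand), and the median of the 50 tested genes nearest to it was -0.05 in PTPRK.RQ against PTPRK.

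GCNT1 and GCNT3 form the core 2 branch, and GCNT3 can also branch core 3. GCNT1 ranged from 8.60 to 29.7 CPM over the tumours, with means from 13.9 ± 2.31 CPM (SD, n = 5) in PTPRK.C1089S to 19.7 ± 5.53 CPM (SD, n = 5) in PTPRK, and was called in none of the 9 comparisons, in any of the settings tried. GCNT3 was at 326 to 387 CPM in WT, 359 to 429 CPM in PTPRK KO, 330.1 to 403 CPM in PTPRK, 330.3 to 414 CPM in PTPRK.RQ and 295 to 340.4 CPM in PTPRK.C1089S tumours. The PTPRK.C1089S tumours were all below the PTPRK KO tumours, with a log2 fold change of -0.32 ± 0.07 (edgeR adjusted p = 0.00216), and GCNT3 was called in no other tested comparison. GCNT3 overlaps GTF2A2 on the other strand, which averaged 57.6 CPM, and reads were counted without regard to strand, so a share of reads in the overlap cannot be assigned to either gene.

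B3GNT3 and B3GNT7 add N-acetylglucosamine to extend chains, B3GNT3 on core 1 and B3GNT7 in chains that carry sulfate. B3GNT3 ranged from 58.4 to 91.2 CPM and was called in none of the 9 comparisons; its mean was 70.0 ± 5.83 CPM (SD, n = 5) in PTPRK KO and 80.0 ± 4.55 CPM (SD, n = 5) in WT tumours. In PTPRK.C1089S against PTPRK KO it stood at 0.22 ± 0.08 (edgeR adjusted p = 0.0576) and passed in 4 of 30 other settings. B3GNT7 was low, at 0.599 to 2.25 CPM, or 30 to 113 counts per tumour. Its mean was 0.945 ± 0.274 CPM (SD, n = 5) in PTPRK, 1.70 ± 0.551 CPM (SD, n = 4) in PTPRK.RQ and 1.71 ± 0.36 CPM (SD, n = 5) in PTPRK.C1089S tumours. PTPRK.C1089S was higher than PTPRK by 0.85 ± 0.23 (edgeR adjusted p = 0.0245) with an overlap in PTPRK replicate 3, the only member called of the 10 in that comparison, where 4.7% of genes were called higher and 3.99% lower. The call was lost without PTPRK.C1089S replicate 1, 2 or 3 or PTPRK replicate 2 or 4, with an edgeR adjusted p of up to 0.0823. Without PTPRK.C1089S replicate 4, GCNT3 and C1GALT1 were called lower in that comparison beside B3GNT7, 3 enzymes in all. Over all genes, those called in that comparison then rose from 1631 of 18758 to 4377 of 18727.

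B3GALT5 adds the galactose of type 1 chains, on which Lewis a and the sialylated Lewis a antigen CA19-9 are built, and it was lower in PTPRK KO and higher in PTPRK.RQ tumours than in WT. WT replicates 1 to 5 had 20.8, 30.9, 23.3, 18.1 and 22.5 CPM, and PTPRK KO replicates 1 to 5 had 15.7, 12.4, 14.0, 16.6 and 14.1 CPM. PTPRK replicates 1 to 6 had 20.6, 24.1, 26.9, 17.5, 20.1 and 14.5 CPM. PTPRK.RQ replicates 1 to 4 had 38.2, 21.8, 39.1 and 37.4 CPM, and PTPRK.C1089S replicates 1 to 5 had 17.4, 18.1, 26.1, 28.3 and 17.7 CPM. All PTPRK KO tumours lay below all WT, PTPRK.RQ and PTPRK.C1089S tumours and below PTPRK replicates 1 to 5, whereas PTPRK replicate 6 lay inside the PTPRK KO range. PTPRK.RQ replicates 1, 3 and 4 were above every other tumour, and replicate 2 was within the WT and PTPRK range.

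PTPRK KO was below WT in B3GALT5, with a log2 fold change of -0.67 ± 0.15 (edgeR adjusted p = 0.0223), and the call was lost without PTPRK KO replicate 2, 3 or 5 or WT replicate 2 (edgeR adjusted p up to 0.0624). Against PTPRK KO the log2 fold change was 0.59 ± 0.15 with PTPRK (edgeR adjusted p = 0.00754), 1.24 ± 0.16 with PTPRK.RQ (edgeR adjusted p = 1.59e-05) and 0.57 ± 0.17 with PTPRK.C1089S (edgeR adjusted p = 0.0186, up to 0.0692 without PTPRK.C1089S replicate 3 or 4, where the call was lost). PTPRK.RQ was above WT by 0.58 ± 0.16 (edgeR adjusted p = 0.0113, and 0.0525 without PTPRK.RQ replicate 3). PTPRK.C1089S was below PTPRK.RQ at -0.67 ± 0.17 (edgeR adjusted p = 0.0236), a call lost in 7 of 30 other settings, with an edgeR adjusted p of up to 0.105. In PTPRK.C1089S against PTPRK.RQ, 0 enzymes were called higher (background 2.92%) and 2 lower (background 2.24%), B3GNT6 and B3GALT5. Without PTPRK.C1089S replicate 4 there were 4, with B3GNT3 higher and GCNT3 lower beside these. Over all genes, those called in this comparison then rose from 968 of 18758 to 2500 of 18727. B3GNT6 and B3GALT5 were chosen on the PTPRK.RQ and PTPRK tumours. These counts of enzymes, and the B3GALT5 values of every comparison with either group, are thus not independent of that choice. PTPRK and PTPRK.C1089S differed from WT by -0.07 ± 0.15 and -0.10 ± 0.16, within the spread between tumours. The contrast that chose the gene, PTPRK.RQ against PTPRK, gave 0.65 ± 0.16. B3GALT5 spans 39556442 to 39673137 of chromosome 21 (GRCh38, plus strand), and an antisense gene inside it averaged 0.225 CPM.

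In that choosing contrast, PTPRK.RQ against PTPRK, 2 of the 10 enzymes passed the threshold as higher, where 1.7% of genes did, and 0 as lower, where 2.04% did; the choice of the genes fixed this count. B3GNT6, at 2.24 ± 0.34, was well inside the threshold, the member just inside was B3GALT5, at 0.65 ± 0.16, and the member just outside was B3GNT7, at 0.85 ± 0.25. ST6GALNAC1 stood at 1.02 ± 0.35, and the other 6 lay between -0.32 and 0.10.

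FUT3, the Lewis enzyme, which adds the fucose of Lewis a and Lewis b, showed the largest difference of the 10 between PTPRK KO and WT tumours. WT replicates 1 to 5 had 4.45, 4.01, 2.80, 3.86 and 3.40 CPM, and PTPRK KO replicates 1 to 5 had 0.374, 1.35, 0.389, 0.897 and 1.23 CPM. PTPRK replicates 1 to 6 had 2.25, 2.12, 4.15, 2.75, 2.18 and 2.95 CPM. PTPRK.RQ replicates 1 to 4 had 2.62, 3.17, 2.28 and 3.38 CPM, and PTPRK.C1089S replicates 1 to 5 had 2.51, 1.86, 3.36, 3.27 and 2.16 CPM. The PTPRK KO tumours were the 5 lowest of all 25, with no overlap with any other group. FUT3 was lower in PTPRK KO than in WT, with a log2 fold change of -2.13 ± 0.28 (edgeR adjusted p = 3.05e-04), a level of 0.229 times that of WT. It was higher than in PTPRK KO by 1.67 ± 0.28 with PTPRK (edgeR adjusted p = 2.56e-04), 1.77 ± 0.30 with PTPRK.RQ (edgeR adjusted p = 1.70e-04) and 1.63 ± 0.28 with PTPRK.C1089S (edgeR adjusted p = 1.50e-04). These 4 calls held in all alternative settings. The re-expressing groups stood at -0.46 ± 0.26, -0.36 ± 0.28 and -0.49 ± 0.26 relative to WT, none of which passed the test. The study itself listed FUT3 among genes that differed between PTPRK KO and WT, and B3GALT5 in its lists for PTPRK.RQ, from these same tumours, so neither list is independent evidence of direction.

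FUT3 lies on chromosome 19 from 5842888 to 5851474 (GRCh38, minus strand) between its near-identical paralogues FUT6 and FUT5, and reads that mapped equally well to more than 1 of them would have been discarded for low mapping quality, so the level of FUT3 is uncertain. FUT5, named here after its values were seen, had 50 counts in all over the 5 WT tumours, 5 over the 5 PTPRK KO, 38 over PTPRK replicates 1 to 5, 25 over the 4 PTPRK.RQ and 54 over the 5 PTPRK.C1089S tumours. It was called lower in PTPRK KO than in WT (edgeR adjusted p = 0.00882), with a median of 12 counts per tumour in WT and 1 in PTPRK KO. FUT6 had 54, 39, 42, 49 and 23 counts over the same groups and was called in none of the 9 comparisons. Whether reads of FUT3 were counted in FUT5 was not tested. For the 50 tested genes nearest to FUT3 the median was -0.09 in PTPRK KO against WT. Against WT their medians were -0.35, -0.23 and -0.07 with PTPRK, PTPRK.RQ and PTPRK.C1089S, and 28, 19 and 1 of them were called lower. Against PTPRK KO their medians were -0.22, -0.09 and 0.01, and 2, 3 and 5 of them were called higher. The part of the region in the FUT3 differences was not tested.

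FUT2, the secretor enzyme, which adds the fucose of H antigen that Lewis b contains, was lower with each PTPRK construct than in PTPRK KO. WT replicates 1 to 5 had 26.6, 25.1, 24.4, 21.1 and 25.5 CPM, and PTPRK KO replicates 1 to 5 had 30.1, 32.9, 30.2, 20.9 and 24.8 CPM. PTPRK replicates 1 to 6 had 24.2, 21.1, 15.1, 18.8, 17.3 and 15.7 CPM. PTPRK.RQ replicates 1 to 4 had 18.6, 23.8, 18.3 and 18.4 CPM, and PTPRK.C1089S replicates 1 to 5 had 14.5, 18.6, 17.4, 16.3 and 21.3 CPM. PTPRK KO replicate 4 fell within the range of the groups with a PTPRK construct, and no group was fully apart from PTPRK KO. The log2 fold change against PTPRK KO was -0.52 ± 0.12 with PTPRK (edgeR adjusted p = 0.00385), -0.48 ± 0.13 with PTPRK.RQ (edgeR adjusted p = 0.0119) and -0.65 ± 0.13 with PTPRK.C1089S (edgeR adjusted p = 6.14e-04). Its 50 nearest tested genes had medians of -0.40, -0.53 and -0.34 in the same comparisons, and 28, 25 and 20 of them were called lower. Relative to WT, FUT2 was called lower with PTPRK (-0.34 ± 0.12, edgeR adjusted p = 0.0395) and with PTPRK.C1089S (-0.47 ± 0.13, edgeR adjusted p = 0.0129), where the medians of its neighbours were -0.32 and -0.27. PTPRK.RQ stood at -0.30 ± 0.13 relative to WT (edgeR adjusted p = 0.0952), which passed in 3 of 25 other settings, with an edgeR adjusted p as low as 0.0254. The call with PTPRK was lost in 7 of 25 other settings, each of which left out 1 tumour, PTPRK replicate 3, 4 or 5 or WT replicate 1, 2, 3 or 5, with an edgeR adjusted p of up to 0.119. PTPRK KO and WT differed by 0.18 ± 0.12, which did not pass. FUT2 spans 48695971 to 48705951 of chromosome 19 (GRCh38, plus strand), far from FUT3, and the part of the region in its difference was not tested.

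**Figure D3:**
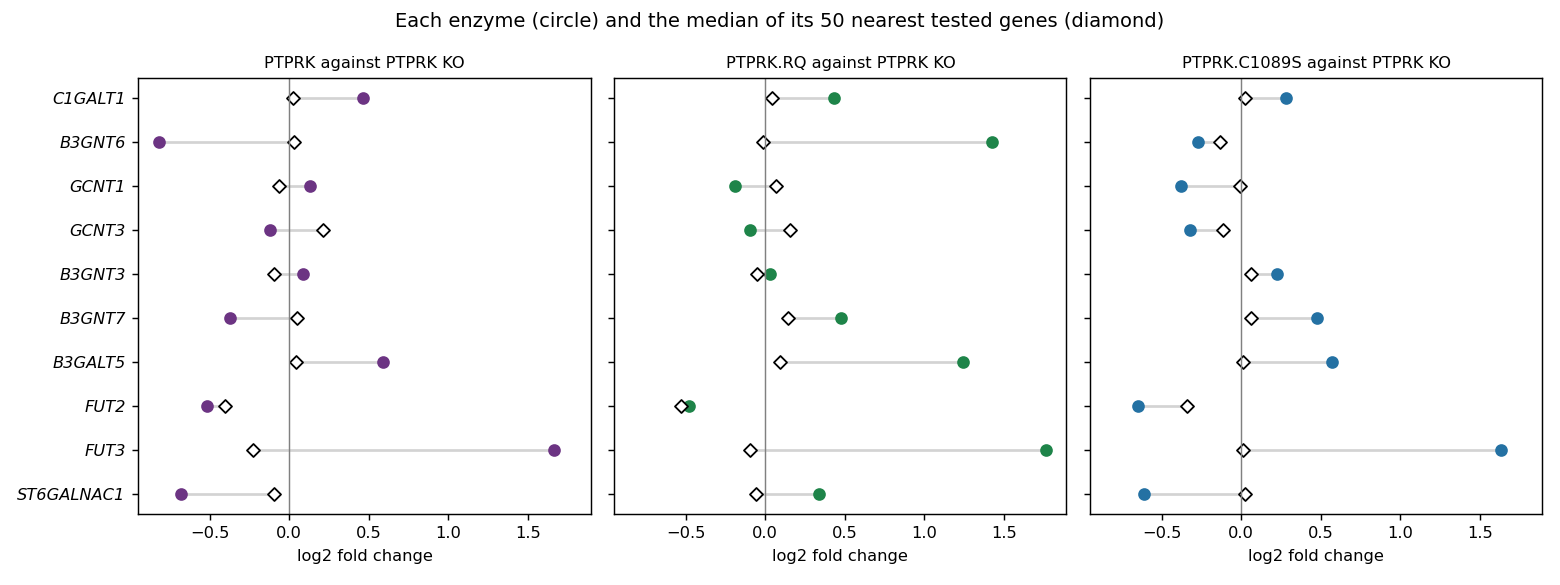
Log2 fold change against PTPRK KO of each enzyme (circles) and the median of its 50 nearest tested genes on the same chromosome (diamonds), for PTPRK, PTPRK.RQ and PTPRK.C1089S. For FUT2 the diamonds lay at -0.40, -0.53 and -0.34 beside the circles at -0.52, -0.48 and -0.65, while for FUT3, B3GALT5 and C1GALT1 the diamonds lay at or below 0.09.

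ST6GALNAC1, which caps the first sugar with sialic acid to make the sialyl-Tn antigen, varied widely between tumours of a group and was called in none of the 9 comparisons. PTPRK.RQ replicates 1 to 4 had 73.1, 42.6, 23.2 and 32.7 CPM, and PTPRK KO replicates 1 to 5 had 52.0, 42.9, 33.2, 14.3 and 28.8 CPM. WT tumours ranged from 24.5 to 43.9 CPM, the 6 PTPRK tumours from 15.8 to 29.5 CPM and PTPRK.C1089S tumours from 18.1 to 29.2 CPM. PTPRK.C1089S against PTPRK.RQ gave -0.95 ± 0.32 (edgeR adjusted p = 0.0871), which passed in 2 of 30 other settings, and PTPRK against PTPRK KO gave -0.68 ± 0.33 (edgeR adjusted p = 0.140), which passed without PTPRK KO replicate 4 (edgeR adjusted p = 0.0406). PTPRK against WT gave -0.64 ± 0.33 (edgeR adjusted p = 0.156), which passed in 2 of 25 other settings, with an edgeR adjusted p as low as 0.0237. PTPRK KO replicate 4 was the lowest of its group in 4 of the 10 enzymes, B3GNT6, GCNT1, FUT2 and ST6GALNAC1.

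Ordering the 5 group means of each enzyme gives 40 pairs of neighbouring groups, of which 35 were tested and 5 differed. The steps that passed were PTPRK.RQ above WT for B3GNT6 and for B3GALT5, and PTPRK.C1089S above PTPRK KO for C1GALT1, B3GALT5 and FUT3. The former 2 steps rest on the PTPRK.RQ values on which these genes were chosen. No step was found between neighbours for GCNT1, GCNT3, B3GNT3, B3GNT7, FUT2 and ST6GALNAC1. The 3 groups with a PTPRK construct were not separated from each other in FUT3 or C1GALT1 in the main fits, where tested. Without PTPRK.C1089S replicate 4, C1GALT1 was called lower in PTPRK.C1089S than in PTPRK (edgeR adjusted p = 0.0441).

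The levels of the enzymes were also compared across all 25 tumours, as a description, with tumours sharing their groups and library preparation. B3GNT6 and ST6GALNAC1 had a Pearson correlation of log2 CPM of 0.745, and 0.653 within groups. FUT2 and ST6GALNAC1 had 0.606, and 0.645 within groups. B3GALT5 and FUT3 had 0.551 over all tumours but 0.0818 within groups, so their likeness lay between group means. C1GALT1 and FUT2 had -0.719, and -0.449 within groups. Among 12700 genes, the 5 with the pattern most like that of B3GNT6 were TFF3 (0.896), FCGBP (0.806), ABCG1 (0.761), PARM1 (0.759) and RELL2 (0.751). TFF3, the intestinal trefoil factor, and FCGBP, a mucus protein, are goblet cell products and were on the goblet cell marker list. For B3GALT5 the 5 were UCP2 (0.857), ZDHHC9 (0.825), PROSER1 (0.821), ENG (0.820) and SLC12A2 (0.816). Over the 21 tumours that were not PTPRK.RQ, B3GNT6 had a correlation of 0.800 with TFF3 and 0.697 with ST6GALNAC1. With FCGBP and PARM1 it was 0.751 and 0.721, and with ABCG1 and RELL2 it fell to 0.569 and 0.577. For B3GALT5 the correlations with its 5 genes were 0.715 to 0.814 over those 21 tumours.

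**Figure D4:**
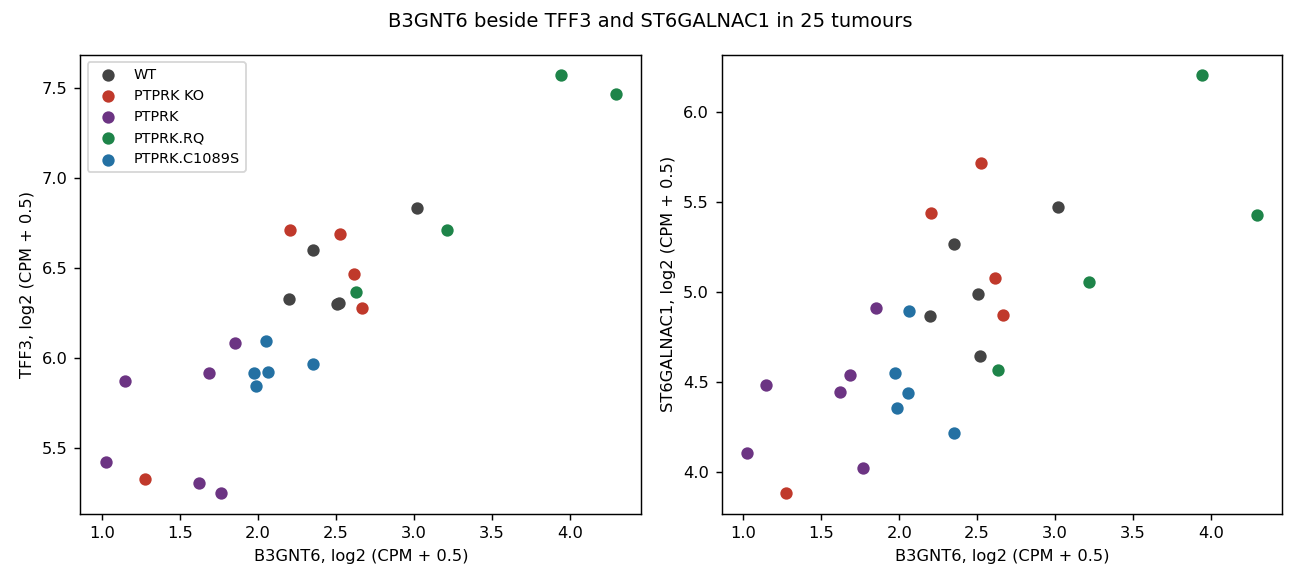
B3GNT6 (x axis) beside TFF3 and ST6GALNAC1 (y axes) in log2 of CPM plus 0.5, with 1 point per tumour, 25 in all, coloured by group. PTPRK.RQ replicates 1 and 2 lie at the upper right, and PTPRK KO replicate 4 lies with the PTPRK tumours at the lower left; over all tumours Pearson's r was 0.896 and 0.745.

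Goblet cell markers differed both in comparisons in which B3GNT6 was called and in others. The 10 markers of the list summed to 2231 to 4154 CPM in PTPRK.RQ, 2021 to 3290.0 CPM in WT, 1175 to 2392 CPM in PTPRK KO, 1401 to 2378 CPM in PTPRK replicates 1 to 5 and 1541 to 1794 CPM in PTPRK.C1089S tumours. AGR2 and REG4 had the highest levels, with means of 936 and 903 CPM in WT and 1306 and 1088 CPM in PTPRK.RQ, and weigh most in these sums. In PTPRK.RQ against WT, 6 markers lay on the higher side and 4 on the lower, among them MUC2, with means of 126 and 183 CPM. CLCA1, which defines mature goblet cells, was under 1 CPM in every tumour other than PTPRK replicate 6, which was left out here. None of the 10 was at 0 throughout a group. In PTPRK.RQ against PTPRK, 5 of the 10 passed the threshold as higher and 0 as lower, in PTPRK.C1089S against PTPRK.RQ 0 were called higher and 6 lower, and in PTPRK against WT 0 were called higher and 5 lower, where over all genes 1.7%, 2.24% and 16.8% were called in those directions. With PTPRK.RQ, 2 were called higher than in PTPRK KO and 3 higher than in WT (10.7% and 14.2% over all genes), and 0 lower. B3GNT6 was not called in PTPRK.C1089S against WT, where 5 markers were called lower (7.24% over all genes), in PTPRK.C1089S against PTPRK KO, where 3 were (7.53%), or in PTPRK against PTPRK KO, where 2 were (14.2%). Neither the markers nor B3GNT6 were called in PTPRK KO against WT or PTPRK.C1089S against PTPRK. PTPRK KO replicate 4 had the lowest sum, 1175 CPM, and PTPRK.RQ replicates 1 and 2 the highest, 4154 and 3514 CPM. The part of goblet-like cells in the B3GNT6 and ST6GALNAC1 levels was not tested.

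The proteins that carry these glycans were counted in a list of 11 mucin genes, of which 10 were tested. In PTPRK KO against WT, 0 were called higher and 2 lower, MUC5AC (-1.25 ± 0.17, edgeR adjusted p = 8.72e-04) and MUC20 (-0.43 ± 0.07, edgeR adjusted p = 0.00218), named after their values were seen. Over all genes, 1.08% were called higher and 1.55% lower in that comparison. Against PTPRK KO, PTPRK gave 3 higher and 0 lower, PTPRK.RQ 3 higher and 0 lower, and PTPRK.C1089S 1 higher, MUC5AC, and 1 lower, MUC2. The shares over all genes were 13.6%, 10.7% and 9.09% higher and 14.2%, 11.1% and 7.53% lower in the same order. The PTPRK.C1089S counts, of 10 tested, lie near those shares. MUC5AC, a gel-forming mucin, stood above PTPRK KO by 0.87 ± 0.17, 1.57 ± 0.18 and 0.81 ± 0.21 with PTPRK, PTPRK.RQ and PTPRK.C1089S.

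The other genes of O-glycan and Lewis antigen synthesis, 83 in a list without the 10 enzymes, were described in the same fits, and 61 of them were tested. In PTPRK KO against WT, 0 were called higher and 2 lower, FUT5 and GCNT2. Against PTPRK KO, 17 were higher and 7 lower with PTPRK, 18 higher and 7 lower with PTPRK.RQ, and 14 higher and 5 lower with PTPRK.C1089S. Of the 61, 27.9% were thus called higher with PTPRK, beside the 13.6% over all genes, and 11.5% lower, beside 14.2%. With PTPRK.RQ the shares were 29.5% and 11.5%, beside 10.7% and 11.1% over all genes, and with PTPRK.C1089S 23.0% and 8.20%, beside 9.09% and 7.53%. Against WT, 14 were higher and 14 lower with PTPRK, or 23.0% each beside 16.1% and 16.8% over all genes. With PTPRK.RQ 17 were higher and 9 lower than in WT, or 27.9% and 14.8% beside 14.2% and 14.1%, and with PTPRK.C1089S 11 and 7, or 18.0% and 11.5% beside 7.69% and 7.24%. PTPRK.C1089S against PTPRK gave 5 higher and 2 lower, or 8.20% and 3.28% beside 4.7% and 3.99%, and against PTPRK.RQ 2 higher and 5 lower, or 3.28% and 8.20% beside 2.92% and 2.24%. These last counts, 7 in each comparison, depended on single tumours and became 0 to 12 and 1 to 11 when 1 was left out. The former was 0 without PTPRK.C1089S replicate 1 or PTPRK replicate 2 or 4, and the latter 1 without PTPRK.RQ replicate 1. They were 12 and 11 without PTPRK.C1089S replicate 4, where 4377 and 2500 of all 18727 genes tested were called.

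By role, the GALNT enzymes, which start O-glycans, were called higher in 6, 4 and 5 of 12 tested and lower in none, for PTPRK, PTPRK.RQ and PTPRK.C1089S against PTPRK KO. Over all genes, 13.6%, 10.7% and 9.09% were called higher and 14.2%, 11.1% and 7.53% lower in these comparisons, and the counts by role that follow stand beside the same shares. GALNT6 was at 24.5 to 28.6 CPM in PTPRK KO, 38.2 to 47.5 CPM in PTPRK, 31.6 to 37.3 CPM in PTPRK.RQ and 40.8 to 45.7 CPM in PTPRK.C1089S tumours, with log2 fold changes of 0.68 ± 0.08, 0.39 ± 0.08 and 0.69 ± 0.07. GCNT2, which branches poly-N-acetyllactosamine chains, was lower in PTPRK KO than in WT (-0.37 ± 0.10, edgeR adjusted p = 0.041) and was above PTPRK KO by 0.57 ± 0.10, 0.45 ± 0.10 and 0.48 ± 0.10 with the PTPRK constructs, all called. Among 12 genes of chain extension, 4, 6 and 3 were higher and 2, 3 and 1 lower.

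Sialyltransferases of the list were called higher in 2, 5 and 3 of 9 tested and lower in none. ST6GAL1, which adds terminal alpha-linked sialic acid mainly to N-glycans, showed the largest of these differences among genes above the level set for naming. It was at 18.96 to 37.0 CPM in PTPRK KO, 54.0 to 78.7 CPM in PTPRK, 52.3 to 59.0 CPM in PTPRK.RQ and 47.8 to 65.1 CPM in PTPRK.C1089S tumours, with no overlap and log2 fold changes of 1.28 ± 0.14, 1.09 ± 0.14 and 1.10 ± 0.13. ABO, the blood group glycosyltransferase, which acts on the H antigen that FUT2 makes, was at 4.91 to 6.79 CPM in PTPRK KO and 8.40 to 14.4 CPM in PTPRK tumours, and stood 0.99 ± 0.15, 0.87 ± 0.16 and 0.68 ± 0.15 above PTPRK KO. FUT2 was called in the opposite direction in the same comparisons. Of 14 genes that supply donor sugars, 1, 0 and 0 were higher and 5, 3 and 4 lower. NANS, a sialic acid synthase, was at 72.4 to 81.7 CPM in PTPRK KO, 55.4 to 60.6 CPM in PTPRK and 55.0 to 65.0 CPM in PTPRK.C1089S tumours, and fell by 0.38 ± 0.06 and 0.33 ± 0.07 on the log2 scale. With PTPRK.RQ it was at 68.9 to 72.8 CPM and not called.

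**Figure D5:**
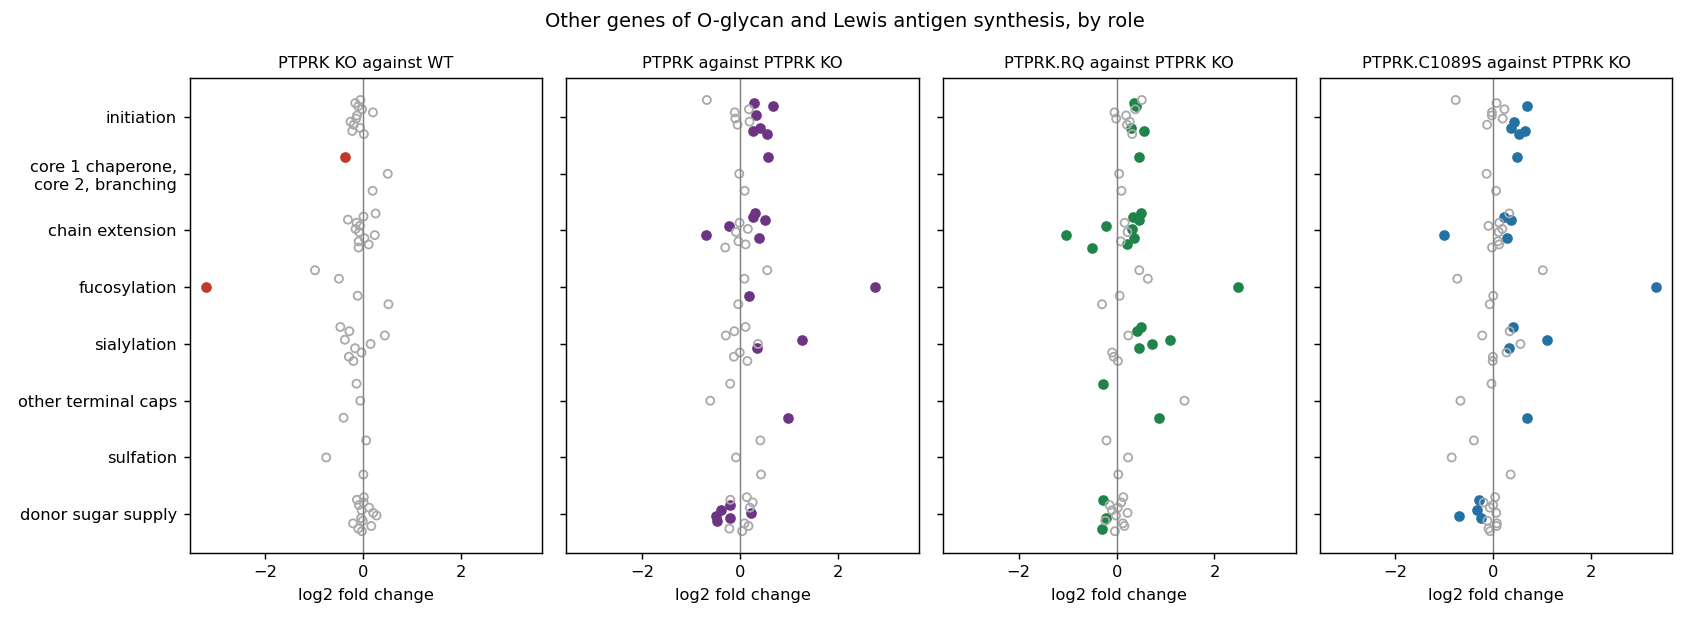
Log2 fold change of the 61 tested genes of the pathway list, 1 point per gene, by role, in PTPRK KO against WT and in PTPRK, PTPRK.RQ and PTPRK.C1089S against PTPRK KO. Filled points passed an adjusted p of 0.05; the initiating GALNT enzymes had 6, 4 and 5 filled points above 0 and none below in the 3 comparisons with PTPRK KO, and FUT5, the point farthest from 0, rests on few counts.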

How the data were processed

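The deposited table holds raw counts of reads per gene. Following the study's methods, the authors trimmed reads and aligned them with hisat2 to the human GRCh38 assembly and separately to the mouse assembly. Alignments of low quality were dropped, and SeqMonk counted overlaps with the exons of Ensembl genes on either strand. Of 38179 rows, 51 repeated an identifier and the row with the larger total was kept. Depth was 43.7 to 59.4 M counts per tumour, and for most genes the spread between tumours sets the precision, while FUT3, B3GNT7 and FUT5 had few counts. Between tumours of a group, a chi-square per degree of freedom over 51 pairs was 12.9 to 112, so no library was a repeat.

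Groups came from the labels. Comparisons used R 4.3.3 and edgeR 4.0.16 with TMM scaling, filterByExpr, robust quasi-likelihood fits and Benjamini-Hochberg adjustment over all genes tested (threshold 0.05). A fit of 19 tumours in 4 groups tested 18550 genes. A second fit of 24 tumours, which added PTPRK.C1089S, tested 18758 genes in the comparisons with that group. The standard error of a log2 fold change was derived from the test, as its size divided by the square root of edgeR's F statistic. The procedure was tested on simulated counts. CPM was computed over all 25 tumours with TMM scaling, and 0.5 was added before taking log2. Alternatives were DESeq2 1.42.0, its size factors, no filter, only the groups compared, a replicate block, all 25 tumours, and leaving out each tumour.

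The 10 enzymes and the pathway and marker lists were chosen with earlier results of these data known. Named beside the enzymes were pathway genes called in at least 1 tested comparison with a mean log2 CPM above 2, and the 5 genes most like B3GNT6 and B3GALT5; any other gene is said to be chosen after its values were seen, and markers stand for their lists.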

Additional observations from a re-analysis of the deposited data

Results flagged for a closer look

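In all, 3 values stood apart from the rest of their group by Dixon's ratio at the 95% level, among 50 combinations of enzyme and group examined, where chance alone gives about 1 in 20. B3GALT5 was at 21.8 CPM in PTPRK.RQ replicate 2, below the other 3 tumours of that group at 37.4 to 39.1 CPM. The same tumour had 23.8 CPM of FUT2, above the other 3 at 18.3 to 18.6 CPM. B3GNT6 was at 4.60 CPM in PTPRK.C1089S replicate 4, above the other 4 at 3.42 to 3.68 CPM.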

How the results depend on the processing

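Of 90 combinations of enzyme and tested comparison, 27 were called, 19 of these in every setting, and no called difference changed sign. For the enzymes, leaving out 1 tumour gave 4 to 6 calls in PTPRK against PTPRK KO, 1 to 2 in PTPRK KO against WT, 5 to 6 in PTPRK.RQ against PTPRK KO, 4 to 6 in PTPRK.C1089S against PTPRK KO, 1 to 3 in PTPRK against WT, 3 to 5 in PTPRK.RQ against WT, 2 in PTPRK.C1089S against WT, 0 to 3 in PTPRK.C1089S against PTPRK and 1 to 4 in PTPRK.C1089S against PTPRK.RQ. For the 61 pathway genes the ranges in the same order were 16 to 28, 0 to 3, 18 to 28, 14 to 23, 23 to 33, 17 to 27, 10 to 19, 0 to 12 and 1 to 11. The highest values of the last 2 ranges, for enzymes and pathway genes, came without PTPRK.C1089S replicate 4. Without it the genes called rose from 1631 to 4377 in PTPRK.C1089S against PTPRK and from 968 to 2500 in PTPRK.C1089S against PTPRK.RQ. DESeq2 called 2 enzymes in PTPRK.C1089S against PTPRK. Without the filter on low counts, 1 pathway gene was called in PTPRK KO against WT. With only the groups compared in the fit, 4 pathway genes were called in PTPRK.C1089S against PTPRK, and 1 enzyme and 2 pathway genes in PTPRK.C1089S against PTPRK.RQ. The cause was not tested. Same-numbered tumours deviated from their group means with correlations of -0.203 to 0.393 (median 0.0344, 18 of 46 pairs above 0.1). Tumours of different numbers were not compared, so these values cannot decide whether a number marks a shared cage or batch. The study housed its genotypes together, and such a link was not tested. With the replicate block, PTPRK against WT had 4 enzymes called and PTPRK KO against WT had 2, no count moved by over 1.5 times, and FUT2 in PTPRK.RQ against WT and ST6GALNAC1 in PTPRK against WT passed. B3GNT7, FUT3 and FUT5 are limited by their few counts.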
